A study of Mus musculus with 9 samples.

Results

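Of the 20189 genes counted in mouse ES cells starved of Thr or Cys, 10 encode the chaperones and proteases that fold and degrade proteins inside mitochondria, and they are the subject here. They were taken by gene symbol alone (GENCODE annotation on the GRCm38 build) and are Hspd1, Hspe1, Hspa9, Trap1, Dnaja3, Lonp1, Clpp, Clpx, Yme1l1 and Afg3l2. All 10 were in the table and all 10 were among the 20143 genes tested. The cells were wild-type E14, an established line of pluripotent mouse ES cells grown on gelatin with serum and leukemia inhibitory factor. They were starved of Thr for 3 h (3 libraries), starved of Cys for 3 h (3 libraries) or left unstarved (3 libraries), and poly(A) RNA was sequenced. The 3 groups share the line, the genotype and the sequencing run, so they stand for 1 cell line at 1 time point. The labels describe starvation medium and its complete counterpart for Arg and Leu only. The study's methods describe a medium free of Cys for a cell death assay, but whether it was used for these libraries is not stated. The labels do not say whether replicates came from separate cultures, so the p-values measure the spread between these libraries, which may be technical. The question posed by the design is how lack of each amino acid (AA) changed these transcripts, and whether the changes differed between Thr and Cys starvation. Below, with Thr and with Cys mean after starvation of that AA, against unstarved libraries unless stated.

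Most mitochondrial proteins are made in the cytosol, pass the import channels unfolded and must be folded on the other side. Hsp70 of the matrix (Hspa9) pulls them in and binds them, with Dnaja3 as its Hsp40 co-chaperone, and the barrel of Hsp60 (Hspd1) closed by its Hsp10 lid (Hspe1) folds them, while Trap1 is the Hsp90 of the organelle. Misfolded or surplus proteins are degraded by ATP-dependent proteases, which are Lonp1 and the Clpx-Clpp complex in the matrix and the Yme1l1 and Afg3l2 complexes in the inner membrane. These genes are best known as readouts of the mitochondrial unfolded protein response, in which chaperone and protease genes are induced when protein folding in mitochondria fails.

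Total counts ranged from 48763102 to 74962733 per library, and the members took 0.335% to 0.393% of them, with no count of a member below 2822. The 8 ES cell markers listed for the check had means of 190 to 821 CPM (the count of a gene scaled to its library's TMM-adjusted total) over the 9 libraries, and 9 of 10 markers of other cell types were in the table, none above a mean of 11.9 CPM. The summed level of these other markers was 34.9 to 35.4 CPM in unstarved, 37.7 to 39.8 in Thr-starved and 39.2 to 41.9 in Cys-starved libraries. Single markers moved in both directions beneath this sum. With Thr, Sox1 rose from a mean of 8.37 to 15.4 CPM (edgeR adjusted p = 1.32e-10), T fell from 3.39 to 1.17 (edgeR adjusted p = 9.83e-09) and Thy1 fell from 3.24 to 0.882 (edgeR adjusted p = 3.77e-10), and of the 9 markers 3 rose and 3 fell. All 8 ES cell markers were called with either starvation, 4 higher and 4 lower with Thr, from Klf4 at 0.85 to Nanog at -0.42 on the log2 scale, and 3 higher and 5 lower with Cys. The part of these markers in the results was not tested. All 6 genes of a starvation check list (Asns, Chac1, Trib3, Psat1, Sesn2, Ddit4) were higher after either starvation.

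In the main fit Thr starvation moved all members, in opposite directions. A gene was called at an edgeR quasi-likelihood p of at most 0.05 after Benjamini-Hochberg adjustment over all tested genes, and by this rule, 6 rose (Hspa9, Clpx, Lonp1, Trap1, Clpp, Yme1l1) and 4 fell (Hspd1, Afg3l2, Hspe1, Dnaja3). A call was not rare in this comparison, since 63.0% of all tested genes were called, 31.1% higher and 31.9% lower. Without Thr-starved replicate 3, 4 members were higher and 4 lower, beside 12207 of 20141 genes called. Without unstarved replicate 1 the members gave 5 and 4, beside 12096 of 20143. At an adjusted p of at most 0.01 they gave 5 and 4, beside 11031. Offsets for GC content and transcript length gave 5 and 5, beside 12646, since Yme1l1 reversed. For all 10 members every Thr-starved library lay on 1 side of every unstarved one, as it did for 66.5% of all genes. Sizes were modest, with a median absolute log2 fold change of 0.236 for the members and 0.308 for the 11410 genes averaging 5 CPM or more. Only Hspd1 passed an absolute log2 fold change of 1.

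Cys starvation called 4 members, and 6 with the deposited size factors or 8 with offsets for GC content and transcript length. Those settings called 7573 and 7811 of all 20143 genes, against 7313 in the main fit. In the main fit Clpx rose and Hspd1, Hspe1 and Dnaja3 fell, beside a background of 36.3% of all genes called, 17.5% higher and 18.8% lower. In 5 members all Cys-starved libraries lay on 1 side of the unstarved ones (46.4% of all genes). The median absolute log2 fold change was 0.0551 for the members and 0.129 for genes of at least 5 CPM. In the direct test of Thr against Cys starvation, 7 members differed, 5 higher with Thr (Hspa9, Lonp1, Trap1, Yme1l1, Hspe1) and 2 lower (Hspd1, Afg3l2), beside 62.0% of all genes called, 30.4% higher and 31.6% lower. The libraries of 8 members did not overlap in that comparison (65.8% of all genes). With the deposited size factors 8 members were higher and 2 lower, beside 12618 of 20143 genes called. With the offsets 6 were higher and 2 lower, beside 12347. Calls against Cys-starved libraries leaned on the scaling. Of the genes called with Cys against unstarved, 48.2% were higher, but 36.8% were with the deposited size factors and 26.3% with offsets for GC content and transcript length. With Thr against Cys the share was 49.0%, and 60.9% with the offsets. The offsets were fitted to shares of raw totals and then added to the TMM scaling, so they also carried a shift common to all genes. With the offsets the median log2 fold change of all genes moved from 0.0068 to -0.068 with Cys against unstarved. The deposited size factors moved it to -0.035. With Thr against Cys the offsets moved the median from -0.018 to 0.079. How much of a value under the offsets came from GC content and length was not tested. CPM are shares of each library, so fewer transcripts per cell and fewer cells of a kind cannot be told apart.

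**Figure D1:**
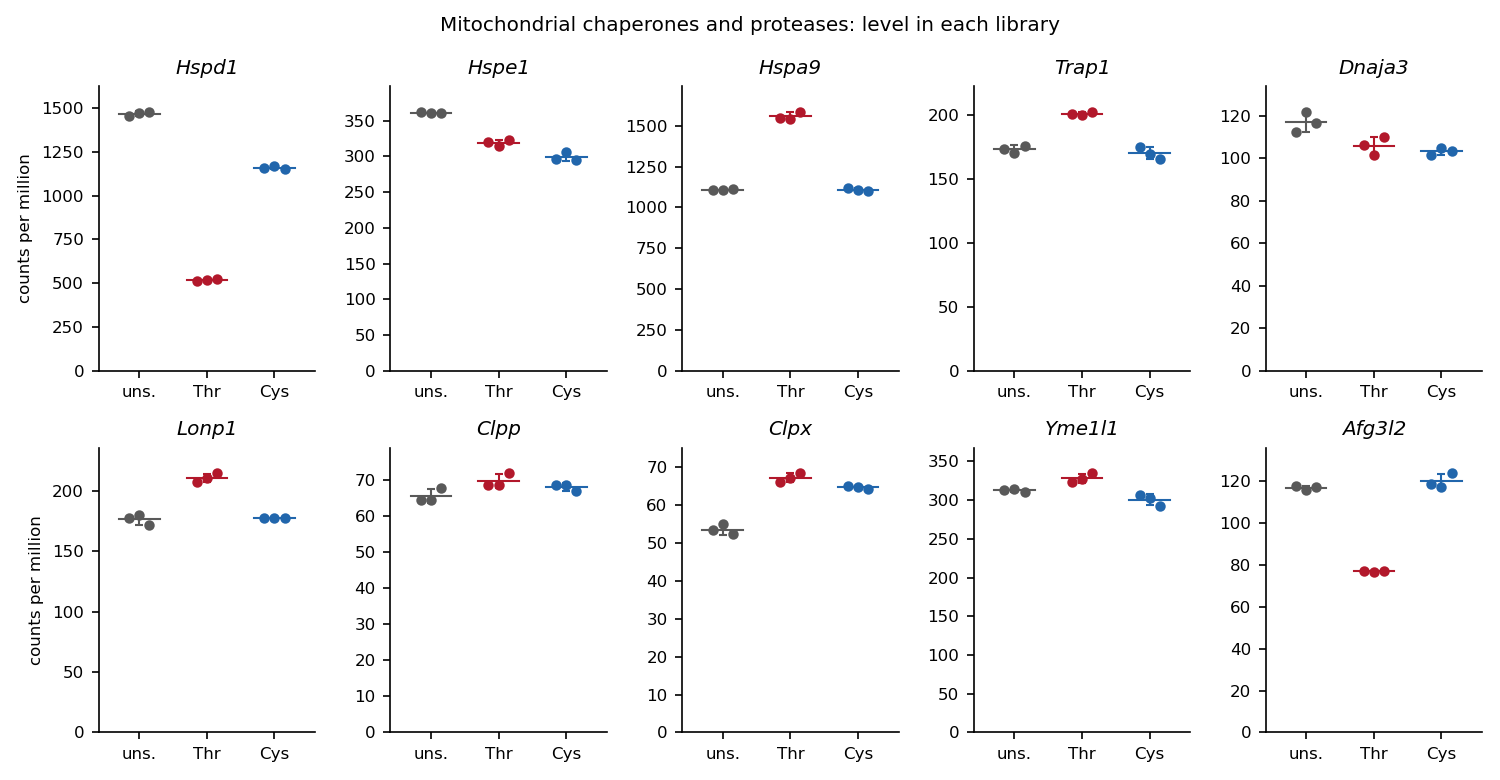
Level of each member (y axis, CPM after TMM scaling, from 0) in unstarved (uns.), Thr-starved and Cys-starved libraries. Points are the 3 libraries of a group, horizontal lines their mean and bars 1 SD. Hspd1 lies at 514 to 522 CPM in all Thr-starved libraries against 1454 to 1478 in unstarved ones, and Hspa9 moves the other way.

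**Figure D2:**
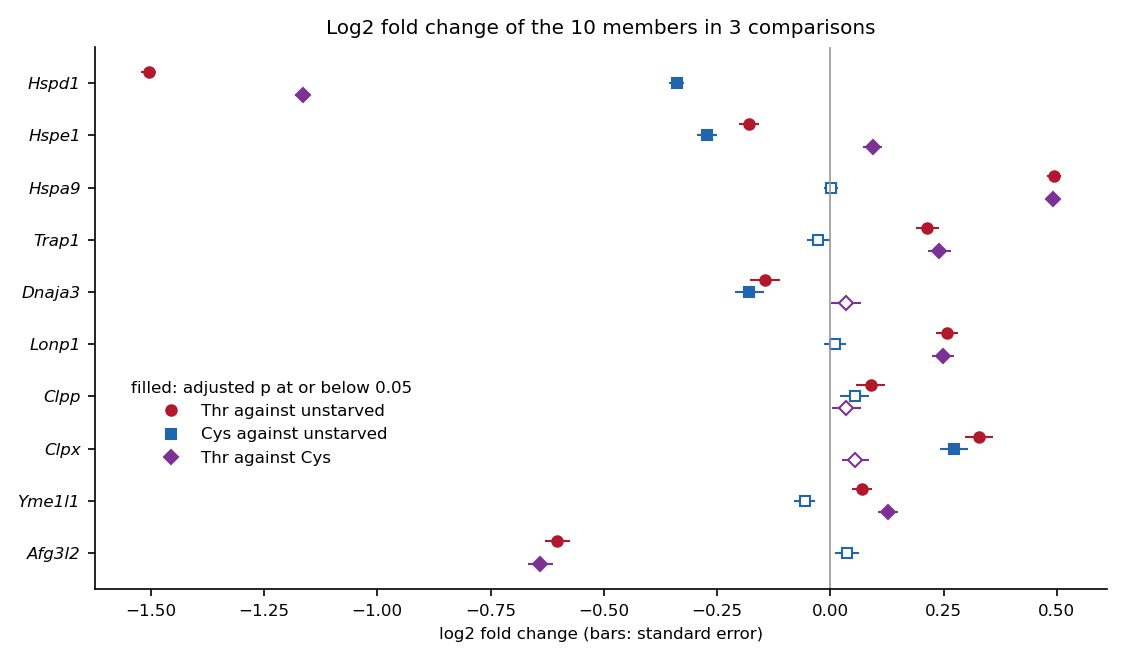
Log2 fold change (x axis) of the 10 members in the 3 comparisons, with bars of 1 standard error. Filled symbols have an adjusted p of 0.05 or less. Values run from -1.50 for Hspd1 to 0.49 for Hspa9 with Thr, and from -0.34 for Hspd1 to 0.27 for Clpx with Cys.

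The folding chamber showed the widest split. Hspd1 (ENSMUSG00000025980) and Hspe1 (ENSMUSG00000073676) lie head to head on chromosome 1, Hspd1 on the minus strand at chr1:55077835-55088243 and Hspe1 on the plus strand at chr1:55088132-55091307, and both are transcribed from the short stretch between their first exons. That stretch is shown because heat shock factor sites are what this promoter is known for. It runs from the annotated start of the full-length Hspd1 transcript to that of Hspe1 (chr1:55088025-55088131, plus strand, RefSeq sequence of GRCm38.p6) and holds 107 bases, with 18 in capitals that match the heat shock element as TTCNNGAA or GAANNTTC.

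Hspd1-Hspe1: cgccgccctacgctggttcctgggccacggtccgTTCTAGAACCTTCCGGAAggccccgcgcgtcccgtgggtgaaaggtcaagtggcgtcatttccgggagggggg

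The capitals hold 3 overlapping matches, TTCTAGAA, GAACCTTC and TTCCGGAA, at positions -89 to -72 from the RefSeq start of Hspe1 (position 0). Of all 32851 RefSeq promoter windows of 300 bases (250 before and 50 after a start), 8.52% hold TTCNNGAA and 7.86% hold GAANNTTC, each motif being its own reverse complement. Among the other members, the Clpp window holds TTCCGGAA, at positions 33 to 40 from its RefSeq start. A match is a description of the letters and not a measured binding site.

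Hspd1 was at 1454, 1473 and 1478 CPM in the unstarved libraries, at 514, 516 and 522 in the Thr-starved and at 1157, 1172 and 1153 in the Cys-starved libraries. The 3 groups were fully separate, with Thr lowest and Cys between. The log2 fold change was -1.50 ± 0.016 (SE, n = 3 per group) with Thr (edgeR adjusted p = 4.74e-25) and -0.34 ± 0.016 with Cys (edgeR adjusted p = 2.33e-13), which left 35.2% and 79.0% of the unstarved level. Between the starvations the difference was -1.17 ± 0.016 (edgeR adjusted p = 6.32e-23). Of the 11410 genes of at least 5 CPM, Hspd1 ranked 261 by the size of its change with Thr and 1174 with Cys.

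Hspe1, the lid of the same chamber, moved far less with Thr and somewhat less with Cys. It was at 362, 360 and 360 CPM in unstarved libraries, at 320, 314 and 322 with Thr and at 296, 306 and 295 with Cys. Here the Cys-starved libraries were lowest and again no groups overlapped. Its log2 fold change was -0.18 ± 0.022 (SE) with Thr (edgeR adjusted p = 1.77e-07) and -0.27 ± 0.022 with Cys (edgeR adjusted p = 1.46e-09). The level was 0.093 ± 0.022 higher with Thr than with Cys on the log2 scale (edgeR adjusted p = 7.23e-04), a call that was lost with offsets for GC content and transcript length (0.012, edgeR adjusted p = 0.648), which also moved the change with Thr to -0.28.

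The count ratio of Hspd1 to Hspe1 within a library does not depend on scaling between libraries. It was 4.02, 4.09 and 4.10 in unstarved, 3.91, 3.84 and 3.91 in Cys-starved and 1.61, 1.65 and 1.62 in Thr-starved libraries. The log2 ratio fell by 1.33 with Thr (pooled SD 0.017) and by 0.067 with Cys (pooled SD 0.017). With 3 libraries against 3, the two-sided exact permutation test can give no p below 0.1, and it gave exact p = 0.1 for both. The pair thus fell in near proportion with Cys and far out of proportion with Thr.

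Part of the Hspd1 reads may be shared with a processed copy. Hspd1-ps3 on chromosome 11 (chr11:41498737-41500458) aligned to the Hspd1 transcript with 98.95% identity over 1722 bases, and its count was 28.4% to 29.9% of that of Hspd1 in every library. It had -1.51 with Thr and -0.33 with Cys on the log2 scale. Reads from the gene and the copy cannot be told apart with certainty here. Adding the counts of all listed pseudogenes to their parents, an alternative chosen after seeing the data, changed no member's call. Of 12 pseudogenes named after a member, 7 were in the table, and the one named after Hspa9 had at most 1.00% of its parent's count. Hspd1 and Hspe1 also share 112 bases of exon on opposite strands, and the kit marks strand, but the strand setting of the counting is not given.

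**Figure D3:**
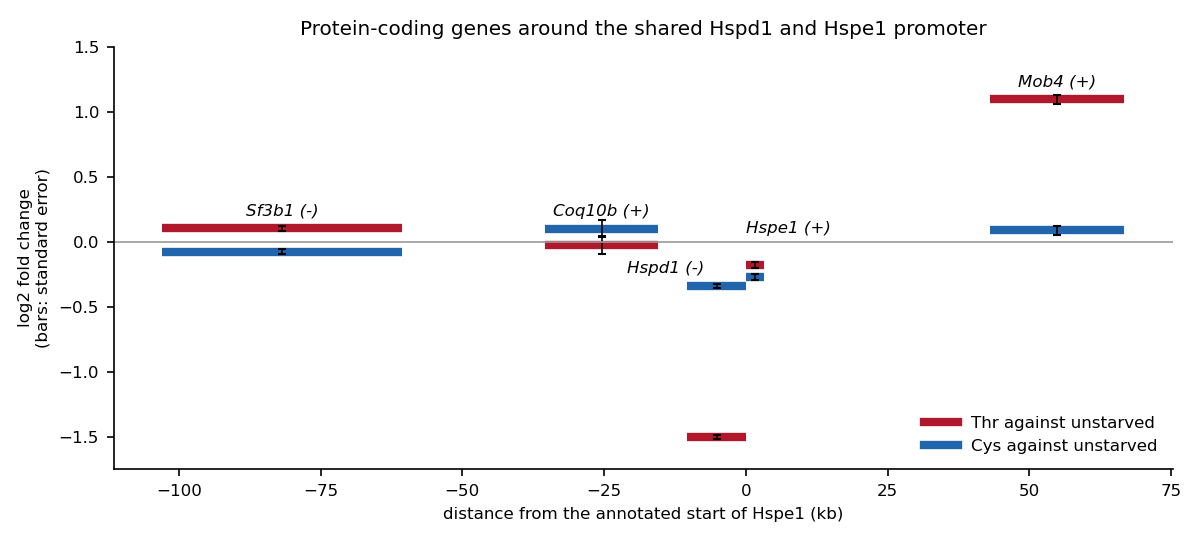
Log2 fold change (y axis, bars of 1 standard error) of the protein-coding genes within 100 kb of the Hspd1 and Hspe1 pair, drawn over their extent as distance from the annotated start of Hspe1 (x axis, kb), with the strand in brackets. Hspd1 is at -1.50 with Thr and its neighbours lie between -0.18 (Hspe1) and 1.097 (Mob4).

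The other genes of the locus did not follow Hspd1. Mob4, which starts 43.1 kb from the start of Hspe1, was at 40.2 ± 1.12 CPM in unstarved and 85.9 ± 1.12 in Thr-starved libraries (SD, n = 3), and it rose by 1.097 ± 0.034 on the log2 scale (SE, edgeR adjusted p = 7.69e-18). Sf3b1, a splicing factor, rose by 0.11 (edgeR adjusted p = 5.84e-05), and Coq10b, a coenzyme Q binding protein, had -0.025 (edgeR adjusted p = 0.767). With Cys these 3 genes had 0.087, -0.076 and 0.10, of which the fall of Sf3b1 was called (edgeR adjusted p = 0.00374). The window was chosen after the values of the pair were known.

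Within the Hsp70 system, Hspa9 moved against Hspd1 with Thr and Dnaja3 did not. Hspa9 (ENSMUSG00000024359, chr18:34937414-34954357, minus strand) is the matrix Hsp70 and the motor of import. It was at 1105, 1107 and 1111 CPM in unstarved, 1551, 1543 and 1585 in Thr-starved and 1122, 1109 and 1098 in Cys-starved libraries. Only the Thr-starved libraries stood apart. On the log2 scale the change was 0.49 ± 0.016 (SE) with Thr (edgeR adjusted p = 2.06e-17), a rise of 40.8%, and 0.0022 ± 0.016 with Cys (edgeR adjusted p = 0.937). The difference between the starvations was 0.49 ± 0.016 (edgeR adjusted p = 3.08e-17). The Cys value had either sign under the alternatives, from -0.088 to 0.0097, and was called as a fall with the GC and length offsets.

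Dnaja3 (ENSMUSG00000004069, chr16:4639989-4707695, plus strand), the Hsp40 that loads clients onto Hspa9, fell with both starvations. Its levels were 113, 122 and 117 CPM in unstarved, 106, 101 and 110 in Thr-starved and 102, 105 and 104 in Cys-starved libraries. The unstarved libraries were highest in both comparisons and the starved groups overlapped each other. This gave a log2 fold change of -0.14 ± 0.032 (SE) with Thr (edgeR adjusted p = 5.22e-04) and -0.18 ± 0.032 with Cys (edgeR adjusted p = 1.25e-04), and the starvations differed by 0.035 ± 0.033 (edgeR adjusted p = 0.367). With the GC and length offsets the change with Thr was -0.085 (edgeR adjusted p = 0.0214), and the difference between the starvations was 0.18 and was called (edgeR adjusted p = 2.26e-05). Dnaja3 shares 153 bases of exon with Coro7 on the opposite strand and 160 with Vasn on its own, so some of its reads may be theirs.

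The count ratio of Hspa9 to Dnaja3 was 9.82, 9.09 and 9.53 in unstarved, 14.6, 15.2 and 14.4 in Thr-starved and 11.04, 10.6 and 10.6 in Cys-starved libraries. It rose by 0.64 with Thr (pooled SD 0.049) and by 0.18 with Cys (pooled SD 0.047) on the log2 scale, with exact permutation p = 0.1 for both. The groups did not overlap. Of the nucleotide exchange factors that reset Hspa9, Grpel2 rose with Thr (0.25 ± 0.036, SE, edgeR adjusted p = 2.42e-06) and Grpel1 was at 92.1, 92.6 and 94.0 CPM in unstarved and 94.8, 91.4 and 94.1 in Thr-starved libraries. With Cys, Grpel1 fell to 77.5, 79.2 and 78.2 CPM (-0.25 ± 0.027, edgeR adjusted p = 2.06e-07). Pam16, a subunit of the import motor, had the largest rise of the partner chaperones with Thr (0.42 ± 0.056, edgeR adjusted p = 6.28e-07).

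Trap1 (ENSMUSG00000005981, chr16:4039971-4077827, minus strand), the mitochondrial Hsp90, was at 174, 170 and 176 CPM in unstarved, 201, 200 and 202 in Thr-starved and 175, 170 and 166 in Cys-starved libraries. Only the Thr-starved libraries stood apart, as for Hspa9. The fitted log2 change was 0.21 ± 0.025 (SE) with Thr (edgeR adjusted p = 1.07e-07) and -0.026 ± 0.025 with Cys (edgeR adjusted p = 0.462). The starvations differed by 0.24 ± 0.025 (edgeR adjusted p = 1.82e-08), which became 0.41 with the GC and length offsets. Trap1 was called as a fall with Cys under the deposited size factors (-0.068, edgeR adjusted p = 0.0412) and with the offsets (-0.11, edgeR adjusted p = 4.11e-04). Its promoter is shown because it was the one member window with the full cAMP response element, TGACGTCA, in capitals here (chr16:4077831-4077890, minus strand, GRCm38.p6).

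Trap1: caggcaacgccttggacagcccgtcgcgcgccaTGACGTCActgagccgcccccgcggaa

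The motif lies at -47 to -40 from the RefSeq start and is held by 1.79% of all windows, being its own reverse complement. Promoter windows were at hand for 8 members (9 windows), but not for Hspa9 and Afg3l2. None of the 9 held TGATGNAA on either strand, a form of the C/EBP-ATF response element through which Atf4, Ddit3 and Cebpb are known to act, against 3.97% of all windows. At that share, none among 9 windows says little.

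The matrix proteases were higher with Thr. Lonp1 (ENSMUSG00000041168, chr17:56614297-56626887, minus strand) degrades damaged matrix proteins and the mitochondrial DNA packaging factor Tfam. It was at 177, 180 and 172 CPM in unstarved, 208, 211 and 215 in Thr-starved and 178, 177 and 178 in Cys-starved libraries. The Thr-starved libraries lay above all others, and the other groups overlapped. The log2 fold change was 0.26 ± 0.024 (SE) with Thr (edgeR adjusted p = 3.31e-09) and 0.0097 ± 0.024 with Cys (edgeR adjusted p = 0.805), and the starvations differed by 0.25 ± 0.024 (edgeR adjusted p = 6.83e-09). With the GC and length offsets the rise with Thr was 0.55, the difference 0.63 and the Cys value -0.086 (edgeR adjusted p = 0.00709). The bases before the RefSeq start of Lonp1 are shown for their E box, CACGTG in capitals (chr17:56626904-56626963, minus strand, GRCm38.p6), the site of basic helix-loop-helix factors such as Myc.

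Lonp1: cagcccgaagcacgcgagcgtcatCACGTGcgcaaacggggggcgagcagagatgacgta

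This E box, its own reverse complement, lies at -36 to -31, and 7.15% of all windows hold one. The alternative upstream window of Hspd1 was the other member window with it.

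Clpx (ENSMUSG00000015357, chr9:65294260-65330658, plus strand), the unfoldase that feeds the ClpP barrel, was the one member called higher after both starvations. It was at 53.3, 55.0 and 52.3 CPM in unstarved, 66.1, 67.2 and 68.4 in Thr-starved and 65.2, 64.8 and 64.3 in Cys-starved libraries. Both starved groups lay above the unstarved one. Its log2 fold change was 0.33 ± 0.031 (SE) with Thr (edgeR adjusted p = 3.10e-09) and 0.27 ± 0.031 with Cys (edgeR adjusted p = 2.93e-07), and the difference of 0.055 ± 0.031 between them was not called (edgeR adjusted p = 0.124). It was called with the deposited size factors (0.10, edgeR adjusted p = 0.00776), and the offsets brought the rise with Cys to 0.18.

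Clpp (ENSMUSG00000002660, chr17:56990305-56996188, plus strand), the proteolytic barrel itself, was at 64.4, 64.6 and 67.9 CPM in unstarved, 68.7, 68.7 and 71.9 in Thr-starved and 68.6, 68.8 and 66.9 in Cys-starved libraries. The Thr-starved libraries lay just above the unstarved ones. The rise with Thr was 0.089 ± 0.032 (SE, edgeR adjusted p = 0.0193) and rested on single libraries. It was not called without unstarved replicate 1 (0.080, edgeR adjusted p = 0.0625) or without Thr-starved replicate 3 (0.065, edgeR adjusted p = 0.111). With Cys it had 0.054 ± 0.032 (edgeR adjusted p = 0.210). The offsets raised the Thr value to 0.36 and the difference between the starvations from 0.035 to 0.33. With the deposited size factors the latter was called for Clpp (0.080, edgeR adjusted p = 0.0374), as it was for Dnaja3 (0.079, edgeR adjusted p = 0.0417). The count ratio of Clpx to Clpp was 0.827, 0.851 and 0.771 in unstarved, 0.963, 0.979 and 0.951 in Thr-starved and 0.950, 0.942 and 0.960 in Cys-starved libraries. On the log2 scale it rose by 0.24 with Thr and 0.22 with Cys (pooled SD 0.054 and 0.053), with exact permutation p = 0.1 for each.

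In the inner membrane, 2 proteases of related structure parted with Thr. Afg3l2 (ENSMUSG00000024527, chr18:67404764-67449172, minus strand) forms the m-AAA protease, whose active side faces the matrix. It was at 118, 116 and 117 CPM in unstarved, 77.2, 76.7 and 77.0 in Thr-starved and 119, 117 and 124 in Cys-starved libraries. The Thr-starved libraries were far below both other groups, which overlapped. On the log2 scale the change was -0.60 ± 0.027 (SE) with Thr (edgeR adjusted p = 8.55e-15), 65.9% of the unstarved level, and 0.037 ± 0.027 with Cys (edgeR adjusted p = 0.306). The starvations differed by -0.64 ± 0.027 (edgeR adjusted p = 3.63e-15).

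The other subunits of the same complex rose with Thr. In mice the m-AAA ring can also hold Afg3l1 and Spg7 (paraplegin). Afg3l1 was at 158, 164 and 166 CPM in unstarved and 196, 196 and 198 in Thr-starved libraries, a rise of 0.27 ± 0.024 (SE, edgeR adjusted p = 1.01e-09). Spg7 was at 67.5, 67.6 and 68.3 CPM in unstarved and 90.0, 90.3 and 90.6 in Thr-starved libraries, a rise of 0.41 ± 0.028 (edgeR adjusted p = 8.59e-12). With Cys, Spg7 rose to 76.2, 78.9 and 76.9 CPM (0.19 ± 0.028, edgeR adjusted p = 9.84e-06) and Afg3l1 had -0.0034 (edgeR adjusted p = 0.937). Scaled to exon length, the means of Afg3l2, Spg7 and Afg3l1 were 11.8, 15.0 and 34.2 CPM per kb in unstarved and 7.80, 19.99 and 41.4 in Thr-starved libraries.

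Yme1l1 (ENSMUSG00000026775, chr2:23156369-23199260, plus strand), the i-AAA protease that faces the intermembrane space, was at 313, 315 and 311 CPM in unstarved, 323, 327 and 334 in Thr-starved and 306, 303 and 293 in Cys-starved libraries. The groups did not overlap, with Thr highest and Cys lowest. This gave a log2 fold change of 0.070 ± 0.023 (SE) with Thr (edgeR adjusted p = 0.00986) and -0.057 ± 0.023 with Cys (edgeR adjusted p = 0.0557), and the starvations differed by 0.13 ± 0.023 (edgeR adjusted p = 3.92e-05). The rise with Thr was not called without Thr-starved replicate 3 (0.056, edgeR adjusted p = 0.0501), and with the GC and length offsets it became a fall of 0.15 (edgeR adjusted p = 3.15e-06). Its transcript has the lowest GC content of the members, at 38.05%. The Cys value was called as a fall under 7 of 21 alternatives. The count ratio of Yme1l1 to Afg3l2 was 2.66, 2.72 and 2.65 in unstarved, 2.58, 2.58 and 2.37 in Cys-starved and 4.18, 4.27 and 4.34 in Thr-starved libraries, a log2 difference of 0.67 with Thr and -0.094 with Cys (pooled SD 0.024 and 0.052), with exact permutation p = 0.1 for each.

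**Figure D4:**
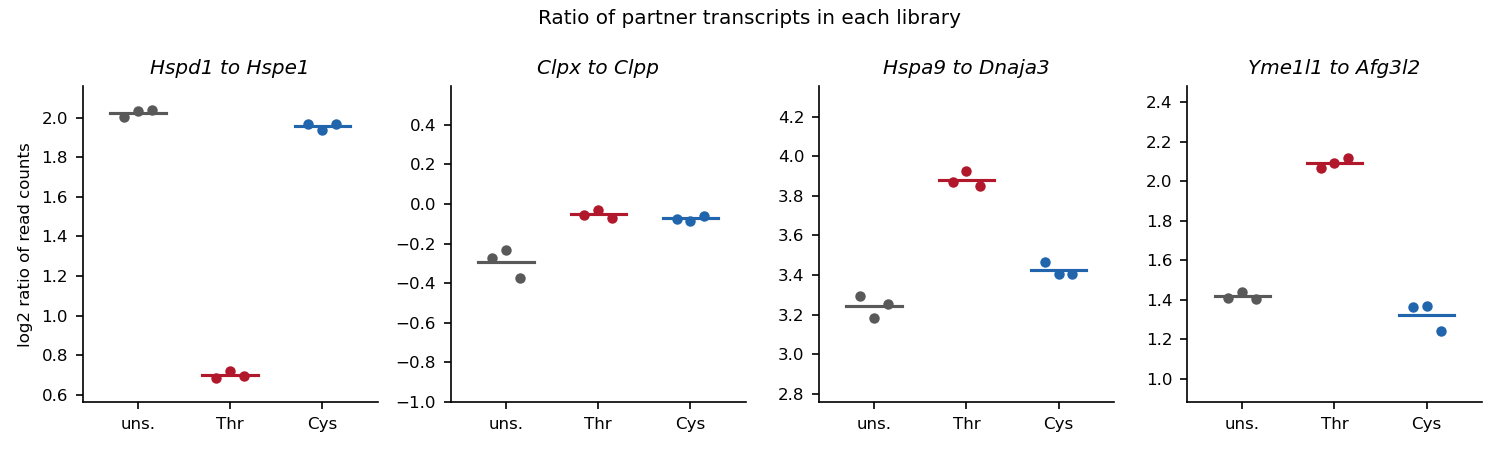
Log2 ratio of the read counts of 2 partner transcripts (y axis, each panel spanning the same range) in the 3 libraries of each group. Points are libraries and lines group means. The Hspd1 to Hspe1 ratio drops from 2.01 to 2.04 in unstarved to 0.685 to 0.719 in Thr-starved libraries, and the ratios of Hspa9 to Dnaja3 and of Yme1l1 to Afg3l2 rise with Thr.

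The scaffold and the stress-activated partner of these proteases fell with Thr. Prohibitin (Phb), which rings the m-AAA protease, was at 332, 329 and 325 CPM in unstarved, 206, 195 and 207 in Thr-starved and 285, 294 and 293 in Cys-starved libraries. The fall was 0.70 with Thr (edgeR adjusted p = 1.38e-16) and 0.18 with Cys (edgeR adjusted p = 5e-06). Its obligate partner Phb2 had -0.061 with Thr (edgeR adjusted p = 0.00953) and -0.096 with Cys (edgeR adjusted p = 4.55e-04). Oma1, which cleaves the fusion protein Opa1 under stress, was at 11.6, 12.5 and 12.3 CPM in unstarved and 7.88, 8.24 and 8.75 in Thr-starved libraries (-0.54 ± 0.067, SE, edgeR adjusted p = 2.35e-07). Opa1, which both Oma1 and Yme1l1 cut, rose by 0.24 ± 0.029 with Thr (edgeR adjusted p = 1.16e-07). Maip1, a partner of the m-AAA protease, had -0.069 with Thr and rose with Cys (0.24 ± 0.060, edgeR adjusted p = 0.00318).

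Scaled to exon length, the order of the members changed at its top with Thr alone. In unstarved libraries the means were 556 CPM per kb for Hspd1, 257 for Hspa9, 245 for Hspe1, 67.4 for Trap1, 53.7 for Clpp, 40.4 for Lonp1, 39.0 for Yme1l1, 29.9 for Dnaja3, 15.3 for Clpx and 11.8 for Afg3l2. Lonp1 and Yme1l1 were the one neighbouring pair whose libraries overlapped. With Thr, Hspa9 (362 CPM per kb) and Hspe1 (216) lay above Hspd1 (196), and with Cys the unstarved order held. The copy Hspd1-ps3, at a mean of 152 CPM in Thr-starved libraries, is not counted in the value of Hspd1. The place of Hspd1 below Hspe1 therefore depends on how reads were split between gene and copy. The lengths are merged exons of all annotated transcripts, which lowers the value of genes with long alternative exons.

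Summed over the 10 members, the level was 3953 ± 16.7 CPM in unstarved, 3456 ± 45.2 in Thr-starved and 3574 ± 28.4 in Cys-starved libraries (SD, n = 3). Hspd1 made up 37.2% of the sum in unstarved, 15.0% in Thr-starved and 32.5% in Cys-starved libraries. The other 9 members summed to 2484 ± 5.32, 2938 ± 41.5 and 2413 ± 22.4 CPM. With Thr the sum was thus lower with Hspd1 counted and higher without it. The 5 protease subunits summed to 725 ± 5.18, 753 ± 12.1 and 731 ± 5.36 CPM.

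Across the 9 libraries, the genes most like Hspd1 by Pearson's r of log2(CPM + 0.5) were Sept9 (r = 0.9997), its own copy Hspd1-ps3 (0.9994) and Sfn (0.9994). Among the members Afg3l2 was closest (r = 0.96, rank 1376 of 11409 genes) and Hspe1 ranked 4649 (r = 0.38). The genes most like Lonp1 were Abce1 (r = 0.9954), Rraga (0.9954) and Ice2 (0.9944), and Hspa9 ranked 130 (r = 0.99). These 9 points are 3 groups of 3, so r mostly describes the order of the group means.

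Genes around the members moved in both directions. Their counts stand beside 31.1% of all genes called higher and 31.9% lower with Thr, and 17.5% and 18.8% with Cys. Of 10 partner chaperones, 5 rose and 2 fell with Thr (median log2 fold change 0.12, all genes -0.016), and 2 rose and 1 fell with Cys. With the GC and length offsets 4 of these 10 were called with Thr and 5 with Cys. Of 15 other mitochondrial proteases, 5 rose and 6 fell with Thr and 3 rose and 2 fell with Cys, near those shares of all genes, and the offsets called 8 with Cys. The matrix processing peptidase subunit Pmpca rose most with Thr (0.50, edgeR adjusted p = 1.36e-13) and Atp23, a metalloprotease of the intermembrane space, fell most (-0.96, edgeR adjusted p = 3.20e-10). The rhomboid protease Parl had the largest fall of Thr against Cys (-0.86 ± 0.030, edgeR adjusted p = 1.10e-16). Of 20 import components, 9 rose and 8 fell with Thr, from Timm22 at 0.50 to Timm21 at -0.95, and 4 rose and 8 fell with Cys, from Timm50 at 0.25 to Tomm5 at -0.55.

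Of the transcripts of 9 protease substrates, 6 rose and 1 fell with Thr (median 0.15), and with Cys 2 were higher and 2 lower (median -0.061), or 7 called in all with the deposited size factors or the offsets. Mrpl32, a mitochondrial ribosome protein matured by the m-AAA protease, rose most with Thr (0.69 ± 0.049, SE, edgeR adjusted p = 2.21e-11). Tfam, the Lonp1 substrate, rose by 0.084 with Thr (edgeR adjusted p = 0.00576) and by 0.34 with Cys (edgeR adjusted p = 4.31e-10). Of 10 genes of mitochondrial DNA and RNA upkeep, 2 rose and 7 fell with Thr and 1 rose and 7 fell with Cys. Of 13 genes used as a measure of mitochondrial content, 2 rose and 7 fell with Thr (median -0.13) and 1 rose and 9 fell with Cys (median -0.093). This content list fell beside Hspd1, and its part in the result was not tested.

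Of 9 genes of mitochondrial stress signalling, 8 were in the table, and 5 rose and 3 fell with Thr, while 4 rose and 1 fell with Cys. The transcription factors of the stress response were higher with Thr, with Ddit3 (CHOP) up by 2.46 ± 0.044 (SE, edgeR adjusted p = 5.31e-22), Cebpb by 1.25, Atf4 by 0.735 and Atf5 by 0.26. With Cys, Cebpb rose by 1.06, Atf4 by 0.36 and Ddit3 by 0.24 ± 0.048 (edgeR adjusted p = 2.98e-04), and Atf5 had 0.081 (edgeR adjusted p = 0.0617). Dele1 and Eif2ak1, which with Oma1 relay mitochondrial stress to the cytosol, moved apart with Thr, Dele1 rising by 0.63 and Eif2ak1 falling by 0.84. Hsf1, the heat shock factor, had -0.17 with Thr (edgeR adjusted p = 1.65e-04) and 0.31 with Cys (edgeR adjusted p = 1.12e-07).

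Paralogues of the members in the cytosol and ER mostly fell. Of 12, 10 fell and 2 rose with Thr (median -0.56), and 11 fell and none rose with Cys (median -0.29). The largest fall with Thr was that of Hspa5 (BiP), the Hsp70 of the ER, from 733, 746 and 753 CPM to 246, 244 and 250 (-1.59 ± 0.021, SE, edgeR adjusted p = 7.42e-24). Hspa8, the constitutive cytosolic Hsp70, had -1.27 with Thr and -0.34 with Cys, close in size to the -1.50 and -0.34 of Hspd1. The stress-inducible Hspa1a and Hspa1b, near-identical copies whose reads may be split, had -0.998 and -1.19 with Thr and -0.63 and -0.67 with Cys. The ER Hsp90 (Hsp90b1) had -0.93 with Thr and Cct2 of the cytosolic chaperonin -0.62, while Hspa4 rose by 0.12 and Tcp1 by 0.050 (edgeR adjusted p = 0.0306). In the direct test, 5 of the 12 were higher with Thr than with Cys (Hsp90aa1, Tcp1, Hspa4, Dnaja1 and Dnaja2) and 7 were lower. The widest of these 5 differences was that of Hsp90aa1, which had -0.10 with Thr and -0.75 with Cys. The mitochondrial Hsp70 and Hsp90 thus rose with Thr while Hspa5, Hspa8 and Hsp90b1 fell.

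**Figure D5:**
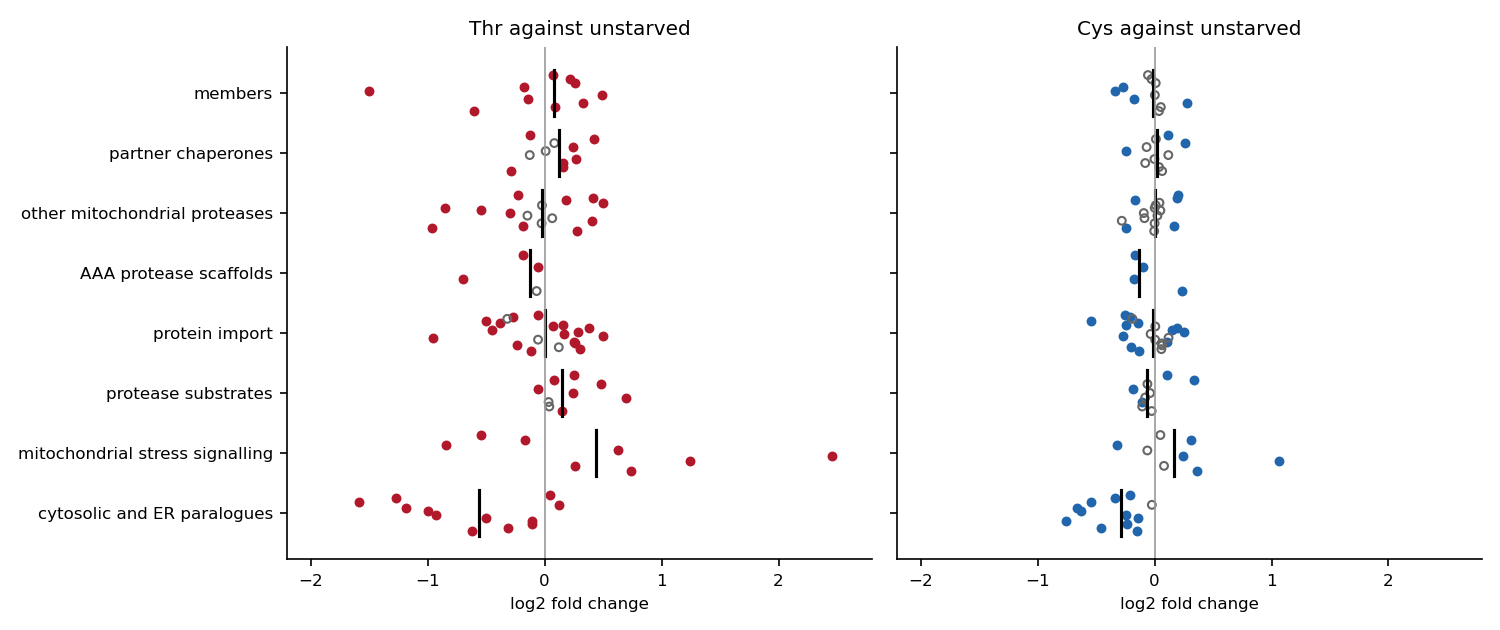
Log2 fold change (x axis) of each gene of the 10 members and of 7 related lists with Thr (left) and Cys (right) against unstarved. Filled points have an adjusted p of 0.05 or less and black bars are list medians. The paralogues have medians of -0.56 and -0.29, and the members 0.080 and -0.012, with Hspd1 far to the left of the other members with Thr.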

How the data were processed

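Per the labels and the study's methods, paired-end reads of poly(A) libraries made with a directional kit were mapped by the authors to GRCm38 with STAR 2.7.4a and counted per gene with HTSeq, and the raw counts were deposited. A second deposited table holds a normalized signal, the same counts divided by 1 size factor per library computed by the authors with DESeq2, and was used only as an alternative. Strand and overlap settings of the counting are not given in the sources used here. Of the 28226 counts from 1 to 20, 67.8% were even, as would follow from counting both reads of a pair, which was not tested.

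All 9 libraries entered 1 fit in R 4.3.3 with edgeR 4.0.16 (TMM, quasi-likelihood F test, genes with at least 1 count, Benjamini-Hochberg over 20143 genes, threshold 0.05). The standard error was the absolute log2 fold change divided by the square root of F. Partner ratios were compared by two-sided exact permutation tests (scipy 1.17.1). On simulated counts for Thr against unstarved, 97 of 100 genes changed by 0.5 and 100 of 100 changed by 1 (log2) were recovered, with 8 false calls among 20140 genes. Only these genes were changed there, all were drawn from genes of higher count, and every gene had the same spread. In the data 63.0% of genes were called, so the simulation checks the code and does not give the error rate here. Alternatives were DESeq2 1.42.0, other scalings, filters and thresholds, only 2 groups, a replicate block, halved counts, offsets for GC content and length, and each library left out. The offsets were fitted to shares of raw totals and added on top of the TMM scaling, so they also shifted all genes of a library alike. Pseudogenes were aligned with BLAST 2.17.0, and figures drawn with matplotlib 3.10.9. Coordinates came from GENCODE M21 and promoter sequences from RefSeq (GRCm38.p6). Protein sequences were not used here. Total counts ranged from 48763102 to 74962733 per library. Between libraries of a group the chi-square per gene was 1.98 to 2.13 at 20 to 200 summed counts, which counting both reads of a pair could give from noise alone. Over the 7449 to 8468 genes with at least 2000 summed counts it was 3.25 to 16.2, so no libraries were merged, and the common biological coefficient of variation was 3.53%.

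The members and the lists were chosen with earlier results of these data known. Genes named are all members, listed direct partners and substrates, the called gene with the largest rise and fall of a list (at least 5 CPM), and any stress signalling gene, paralogue or ES marker. T and Thy1, both below 5 CPM, and the starvation check genes were named outside this rule. The genes of the Hspd1 locus were added after values were seen.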

Additional observations from a re-analysis of the deposited data

How the results depend on the processing

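The direction and the call of a member's fold change were kept in 579 of 630 comparisons of a member with an alternative. Some of these could hardly differ. The stricter thresholds reused the main fit, so the direction was fixed, and some fits left out a library of the group not compared. The count is therefore not a measure of stability. Demanding a log2 change of 1 or more in size left 1, 0 and 1 members called with Thr against unstarved, Cys against unstarved and Thr against Cys. The same rule left 2668, 296 and 2303 of all 20143 genes called. Under it the related lists kept 0 called genes, except that with Thr there were 2 stress signalling genes, 3 paralogues, 3 other cell markers and 3 starvation genes, with Cys 1 stress signalling and 3 starvation genes, and with Thr against Cys 1 import, 1 stress signalling and 1 paralogue gene and 2 other cell markers. The GC and length offsets called 8 members with Cys, and 5 partner chaperones, 8 other proteases and 7 substrates with Cys, 4 partner chaperones with Thr and 4 scaffolds with Thr against Cys. Of all 20143 genes they called 7811 with Cys, 12646 with Thr and 12347 with Thr against Cys. The offsets also carried a shift common to all genes, whose part in these calls was not tested. The deposited size factors called 7 substrates with Cys, beside 7573 of all 20143 genes. The change of Yme1l1 with Thr reversed to -0.15 with the offsets. With Cys, values near 0 changed sign. Hspa9 had -0.0021 with DESeq2 and with RLE, -0.040 with the deposited size factors, -0.00040 with filterByExpr, -0.088 with the offsets and -0.0060 to 0.0097 when 1 library was left out. Lonp1 had -0.032 with the deposited size factors, -0.086 with the offsets and -0.0094 to 0.025 when 1 library was left out. Afg3l2 had -0.0045 and -0.055 with these factors and offsets. The deposited size factors moved the median log2 fold change of all genes with Cys from 0.0068 to -0.035. Values and calls under these factors thus carried a shift common to all genes. The cause of the other sign changes was not tested. With the replicate block 10, 4 and 7 members were called, as without it. Same-numbered libraries had correlations of deviations from -0.24 to 0.11, and differently numbered ones from -0.16 to 0.21, so no pairing by number was seen. With 3 libraries per group the check cannot exclude a pairing. The partner ratios moved by less than 1 pooled SD with a pseudocount of 1 or with a library left out. Depth did not limit the members, whose lowest count was 2822.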
